A study of Mus musculus with 12 samples.

Results

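Potassium channel genes were taken as all genes of the expression table whose symbol begins with Kcn, which gave 90 of 19246 genes. Of these, 30 had a mean of 1 FPKM or more over 12 mouse heart libraries and 60 lay below. FPKM scales the fragments of a gene to its length and to the depth of the library, so levels of different genes can be set side by side. The boundary ran between Kcnmb1 at a mean of 1.33 FPKM and Kcnab2 at 0.98 FPKM. RNA was sequenced from 4 groups with 3 libraries each, in mice of a strain labelled IRC mouse. Control mice had no treatment. Mice of the AOS group were dosed with alginate oligosaccharides, sugar chains cut from the alginate of seaweed, for 5 weeks at 10 mg/kg. In the busulfan group the drug, which alkylates DNA, was given once at 40 mg/kg. The busulfan plus AOS group had both, busulfan once at 40 mg/kg and then AOS for 5 weeks at 10 mg/kg. No age is labelled, and nothing tells whether each library is a separate heart, so the p-values rest on a spread between libraries that may be technical.

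Potassium channels return the membrane of a heart muscle cell to its resting voltage after each beat and hold it there. The mouse heart repolarises mainly through a fast transient outward current, carried by Kv4 pore subunits with the auxiliary subunit KChIP2, and through slower Kv currents. Inward rectifiers set the resting voltage (Kir2), respond to the energy state of the cell (Kir6, built with the sulphonylurea receptors Abcc8 and Abcc9) or open when acetylcholine or adenosine acts on the atria and the pacemaker (Kir3.1 with Kir3.4). The Kir3 channels are known for higher levels in atrial than in ventricular muscle, and KChIP2 for strong ventricular expression.

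The libraries differed widely in atrial markers, and 2 of them stood apart. The atrial marker level of a library was the mean log2(CPM + 1) of 8 atrial genes, none of them a Kcn gene. It ran from 2.08 in busulfan replicate 1 to 8.56 in AOS replicate 2, with busulfan plus AOS replicate 1 close behind at 8.5. Summed FPKM of these 8 markers lay between 34.57 and 14640. That of 8 genes listed as ventricular ran from 37140 in control replicate 1 to 13840 in busulfan plus AOS replicate 1. The next lowest sum was 17400 FPKM, in AOS replicate 2. Not all ventricular genes fell alike. Myl2 was at 18054 FPKM in control replicate 1 and 2542 in busulfan plus AOS replicate 1, while Myh6 was at 4774 and 5238. No control library had a value above 0 for Bmp10, a growth factor of the atria. Other atrial markers were high in control replicate 2, with Myl7 at 3321 FPKM and a sum over the 8 markers of 8032 FPKM. Estimated counts per library totalled 9929772 to 13620815. In bulk RNA, fewer cells of a type and less RNA per cell cannot be told apart.

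Promoter stretches are shown for 3 genes on which the comparison with the atrial markers turned: Kcnj3 and Kcnj5, which encode the 2 subunits of the acetylcholine-gated channel, and Kcnip2, which encodes KChIP2. Each is the 250 bases before the start in the RefSeq promoter table for GRCm38.p6, 5′ to 3′ on the strand of the gene, with matches to any of 4 motifs in capitals.
Kcnj3 at chr2:55435720-55435969 (+): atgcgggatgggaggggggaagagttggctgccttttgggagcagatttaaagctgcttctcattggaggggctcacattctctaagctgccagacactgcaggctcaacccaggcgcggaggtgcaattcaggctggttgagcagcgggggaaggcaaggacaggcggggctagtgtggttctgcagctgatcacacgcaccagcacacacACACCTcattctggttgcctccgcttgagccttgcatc
Kcnj5 at chr9:32344345-32344594 (-): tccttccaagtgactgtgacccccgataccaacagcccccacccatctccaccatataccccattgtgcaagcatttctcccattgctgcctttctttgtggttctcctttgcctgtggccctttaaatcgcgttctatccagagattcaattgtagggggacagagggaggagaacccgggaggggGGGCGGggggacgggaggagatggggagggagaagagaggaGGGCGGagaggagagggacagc
Kcnip2 at chr19:45816064-45816313 (-): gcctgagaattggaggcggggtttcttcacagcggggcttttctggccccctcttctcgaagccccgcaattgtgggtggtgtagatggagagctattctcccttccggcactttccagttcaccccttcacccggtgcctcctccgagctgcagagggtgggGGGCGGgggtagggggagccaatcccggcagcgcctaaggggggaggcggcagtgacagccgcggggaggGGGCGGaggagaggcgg
The motifs were searched on both strands with overlaps allowed. The first was a T-box motif, spelled AGGTGT, known as the site of factors such as Tbx5. The second was a nuclear receptor motif, spelled AGGTCA, known for receptors such as Nr2f2. The third was a GATA motif, spelled AGATAA, and the last a GC box, spelled GGGCGG, common in promoters. The Kcnj3 stretch held a single match, to the T-box motif on the reverse strand, 38 bases before the start. The Kcnj5 stretch held 2 GC boxes, 63 and 22 bases before the start, and the Kcnip2 stretch also 2, 87 and 17 bases before it. Of 32851 promoters in the table, 11.8% held the T-box motif, 14% the nuclear receptor motif, 9.99% the GATA motif and 32.7% the GC box. Of 90 promoters listed for 65 of the Kcn genes, 14.4%, 6.67%, 3.33% and 44.4% did. A match is a run of letters and not a measured binding site. In RefSeq the Kcnj3 gene (chromosome 2, 55411798 to 55598145) begins upstream of its stretch. The spans of Kcnj5 (chromosome 9, 32314706 to 32344380) and Kcnip2 (chromosome 19, 45792346 to 45816422) also reach past their listed starts. The whole Kcnj3 stretch and the whole Kcnip2 stretch lie inside the spans of their genes. The T-box match of Kcnj3 thus lies before a listed start within the gene. The first bases after the listed start were found in a GENCODE transcript of the gene for Kcnj3 and Kcnj5, but not for Kcnip2. In GENCODE the gene of a long noncoding RNA, Gm26794, overlaps an exon of Kcnj3 on the opposite strand. Whether reads were counted by strand is not given in the sources used here, so reads of overlapping genes cannot be told apart.

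Few members carried most of the signal. The 5 highest members held 56.6% to 66.7% of the summed Kcn FPKM of a library, and the 60 members under 1 FPKM together 1.75% to 4.88%. Of the 30 abundant members, 25 had at least 1 FPKM in all 12 libraries. Their coefficient of variation over the libraries had a median of 23.8%, with 12 of 30 under 20%, and ran from 6.38% for Kcng2 to 83.4% for Kcnj3.

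**Figure D1:**
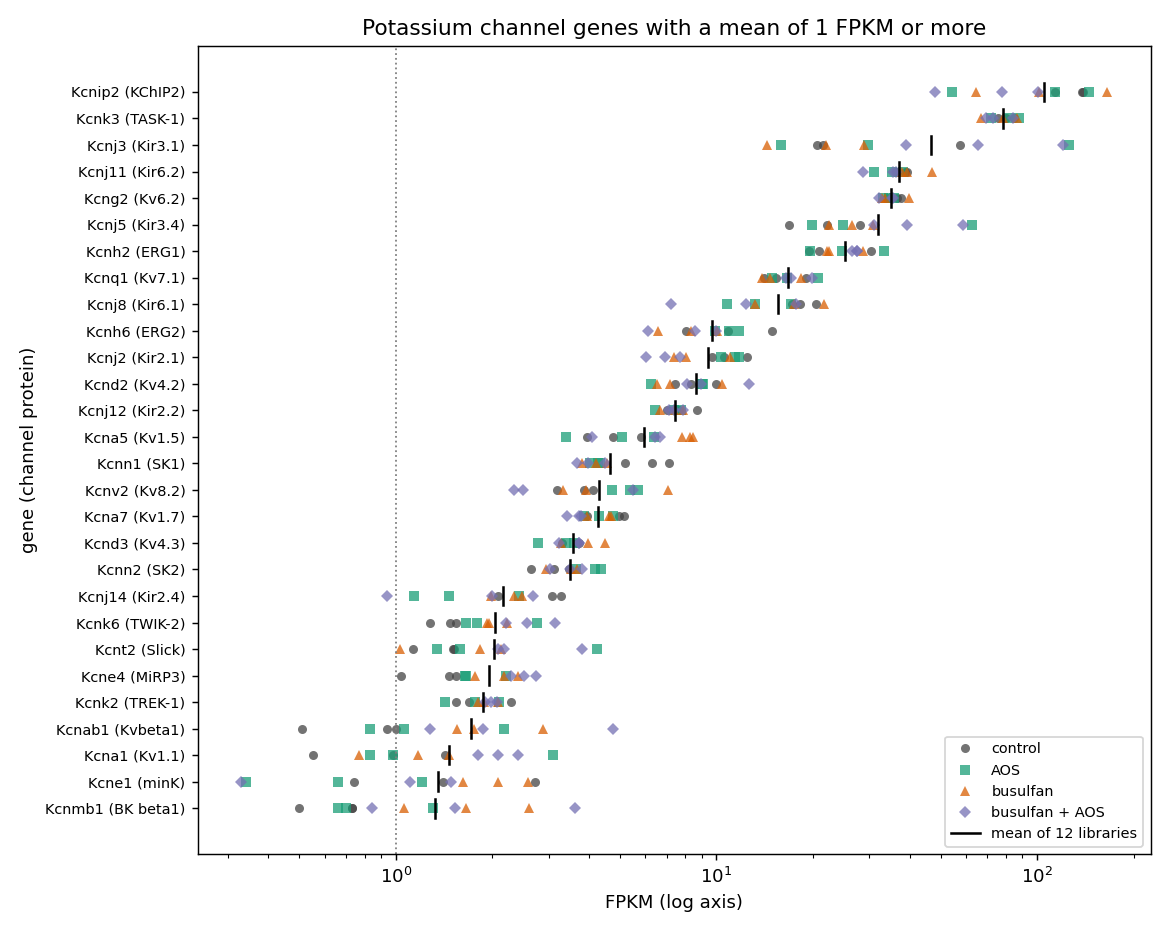
FPKM (log axis) of 28 potassium channel genes with a mean of 1 FPKM or more, with 1 point per library (3 libraries per group) and a bar at the mean of 12 libraries. Kcnip2, Kcnk3 and Kcnj3 lead the order, and the points of Kcnj3 spread from 14.3 to 126 FPKM while those of Kcng2 stay between 32.1 and 40.0 FPKM.

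Among the pore-forming Kv alpha subunits, 6 of 17 members reached 1 FPKM. Kcnd2 (Kv4.2) and Kcnd3 (Kv4.3) form the pore of the fast transient outward current. Kcnd2 had means of 8.57 ± 1.3 FPKM in control, 8.12 ± 1.61 with AOS, 8.04 ± 2.1 with busulfan and 9.88 ± 2.39 with both (SD, n = 3), so the groups overlapped. Kcnd3 averaged 3.58 FPKM over the 12 libraries, and the ratio of Kcnd2 to Kcnd3 ran from 1.65 to 3.38 with a median of 2.36. Kcnd2 was therefore the more abundant of the 2 in every library. Kcna5 (Kv1.5), which carries a slower outward current of the mouse ventricle, averaged 5.93 FPKM. Kcna7 (Kv1.7) averaged 4.26 FPKM and Kcna1 (Kv1.1) 1.46 FPKM.

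The auxiliary subunit Kcnip2 was the highest member of all, with a mean of 105 FPKM. Its values were 139, 113 and 138 FPKM in control, 146, 54.1 and 113 with AOS, 165, 64.5 and 102 with busulfan, and 48.2, 100.45 and 77.7 with both. The 2 lowest libraries were busulfan plus AOS replicate 1 and AOS replicate 2, which had the highest atrial marker levels. Set against its Kv4 partners, the ratio of Kcnip2 to the sum of Kcnd2 and Kcnd3 ran from 3.79 to 15.7 with a median of 8.21. The other auxiliary subunit at this level, Kcnab1 (Kvbeta1), averaged 1.72 FPKM. Kcnip3 was at 0.96 FPKM and Kcnab2 at 0.98 FPKM, both just under the boundary.

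Silent Kv subunits form no channel alone and modify other Kv channels, and 2 of 10 members reached 1 FPKM. Kcng2 (Kv6.2) averaged 35.05 FPKM and varied least of the abundant members, between 32.1 and 40.0 FPKM. Kcnv2 (Kv8.2) averaged 4.301 FPKM.

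Of 17 members in the KCNQ, ether-a-go-go and KCNE families, 6 reached 1 FPKM. Kcnh2 (ERG1, the pore of the rapid delayed rectifier) averaged 25.2 FPKM, Kcnq1 (Kv7.1, the pore of the slow delayed rectifier) 16.8 FPKM and Kcnh6 (ERG2) 9.67 FPKM. The KCNE subunits, single-span proteins that modify these pores, were low, with Kcne4 at 1.95 FPKM and Kcne1 (minK) at 1.36 FPKM. Kcne1 ranged from 0.33 to 2.72 FPKM, lowest in busulfan plus AOS replicate 1 and AOS replicate 2, so that the ratio of Kcnq1 to Kcne1 ran from 5.67 to 60.9. The antisense RNA Kcnq1ot1 overlaps Kcnq1, and Kcnd3os overlaps Kcnd3. In all, 13 of the 30 abundant members have an annotated gene over one of their exons.

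Inward rectifiers took the largest median share of the summed Kcn FPKM, 28.5%, with a range of 22.9% to 44.9%, and 7 of 15 members reached 1 FPKM. Kcnj3 (Kir3.1) averaged 46.7 FPKM. Its values were 21.6, 57.5 and 20.5 FPKM in control, 15.9, 126 and 29.6 with AOS, 14.3, 28.9 and 22.0 with busulfan, and 120.0, 38.9 and 65.5 with both. AOS replicate 2 and busulfan plus AOS replicate 1 were highest, and all 4 groups overlapped except that every busulfan plus AOS library lay above every busulfan library. Its partner Kcnj5 (Kir3.4) averaged 31.9 FPKM, with 16.9, 28.1 and 22.1 FPKM in control, 19.9, 62.7 and 24.7 with AOS, 22.4, 30.8 and 26.4 with busulfan, and 58.7, 31.0 and 39.4 with both. The same 2 libraries were highest. The ratio of Kcnj3 to Kcnj5 ranged from 0.641 to 2.05 with a median of 1.23, and Kcnj3 spanned the wider range of the pair.

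The Kir6 pores of the ATP-sensitive channel were both present, Kcnj11 (Kir6.2) at a mean of 37.0 FPKM and Kcnj8 (Kir6.1) at 15.5 FPKM, with a ratio of 1.90 to 3.95. Of the Kir2 pores that set the resting voltage, Kcnj2 (Kir2.1) averaged 9.43 FPKM and Kcnj12 (Kir2.2) 7.43 FPKM, and Kcnj14 (Kir2.4) 2.15 FPKM. Kcnj12 varied little, with a coefficient of variation of 8.12%, against 22.7% for Kcnj2.

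Tandem pore channels carry background currents, and 3 of 11 members reached 1 FPKM. Kcnk3 (TASK-1) was the second highest member of all, at 78.3 FPKM, and lay between 66.9 and 88.1 FPKM in all libraries. Kcnk6 (TWIK-2) averaged 2.04 FPKM and the stretch-sensitive Kcnk2 (TREK-1) 1.88 FPKM. Of 12 members for channels opened by calcium or sodium, 4 reached 1 FPKM. The small-conductance channels Kcnn1 (SK1) and Kcnn2 (SK2) averaged 4.66 and 3.49 FPKM, the sodium-activated Kcnt2 (Slick) 2.03 FPKM and the BK subunit Kcnmb1 1.33 FPKM. The BK pore Kcnma1 itself averaged only 0.22 FPKM.

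**Figure D2:**
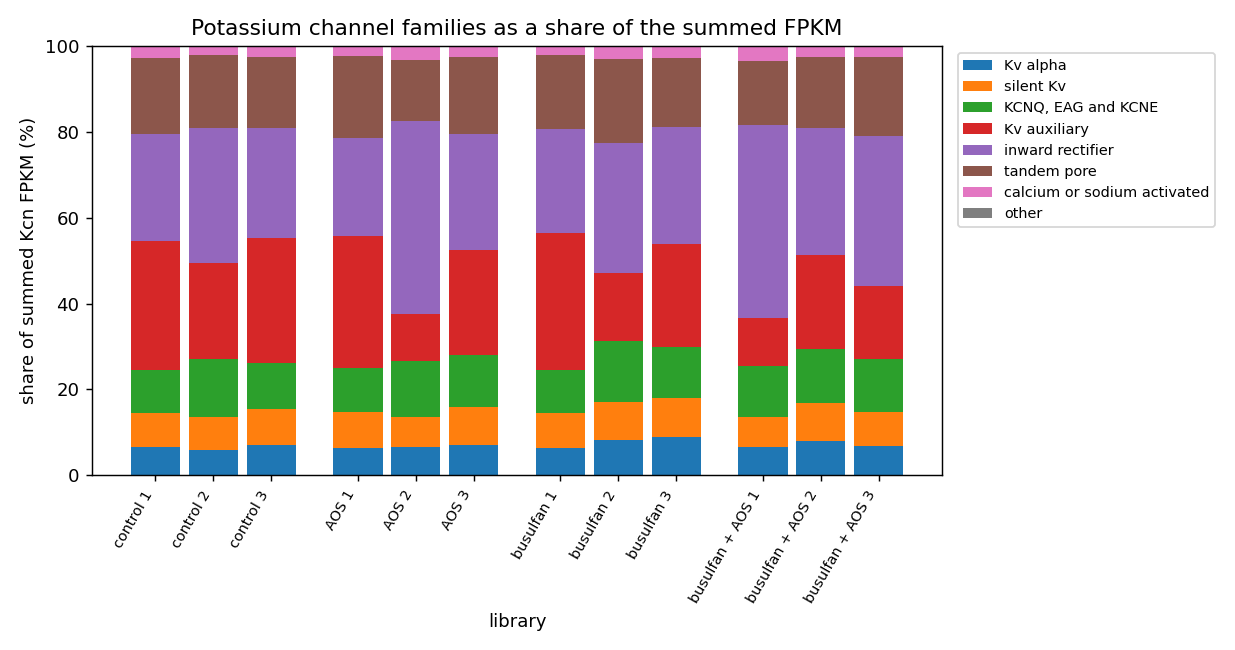
Share of the summed Kcn FPKM (%) held by each family in each of the 12 libraries, as stacked bars from 0 to 100%. The inward rectifier share is largest in AOS replicate 2 and busulfan plus AOS replicate 1, up to 44.9%, where the Kv auxiliary share falls as low as 11.0%.

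The 60 members under 1 FPKM included 27 with a mean under 0.1 FPKM and 17 listed at 0 in 6 or more libraries, and none was at 0 in all 12. Only 11 of them reached 1 FPKM in any library, among them Kcnab2, Kcnip3, Kcna2, Kcnk5, Kcnj15, Kcna4, Kcna6, Kcnip4, Kcnrg and Kcnn4. Of these 11, 9 did so in AOS replicate 2 and 10 in busulfan plus AOS replicate 1, and 0 in neither. These 2 libraries were also where 19 and 19 of the 60 had their highest value, against 7 and 4 of the 30 abundant members. The largest single value was 2.50 FPKM for Kcna2 in AOS replicate 2.

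How the channel genes moved with the atrial markers was tested within groups, with a slope for each gene on the atrial marker level and a separate mean for each group (edgeR's quasi-likelihood test on estimated counts, Benjamini-Hochberg over all genes tested). The slope is the change in log2 expression per unit of the marker level. Of 57 Kcn genes with enough counts, 20 passed an adjusted p of 0.05, or 35.1%, against 19.3% of all genes tested. Of the 20, 17 rose with the atrial markers and 3 fell (11.2% and 8.14% of all genes). The count rested on few libraries: without AOS replicate 2 it was 2 (2.38% of all genes), without AOS replicate 1 it was 12 (8.89%), and without the 2 libraries highest in atrial markers it was 2, against 1.73% of all genes. The 2 genes called without those libraries were Kcnj3 and Kcnip2. Of the 20, 12 had a mean under 1 FPKM, and 10 of these 12 had enough counts for the test without those libraries.

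**Figure D3:**
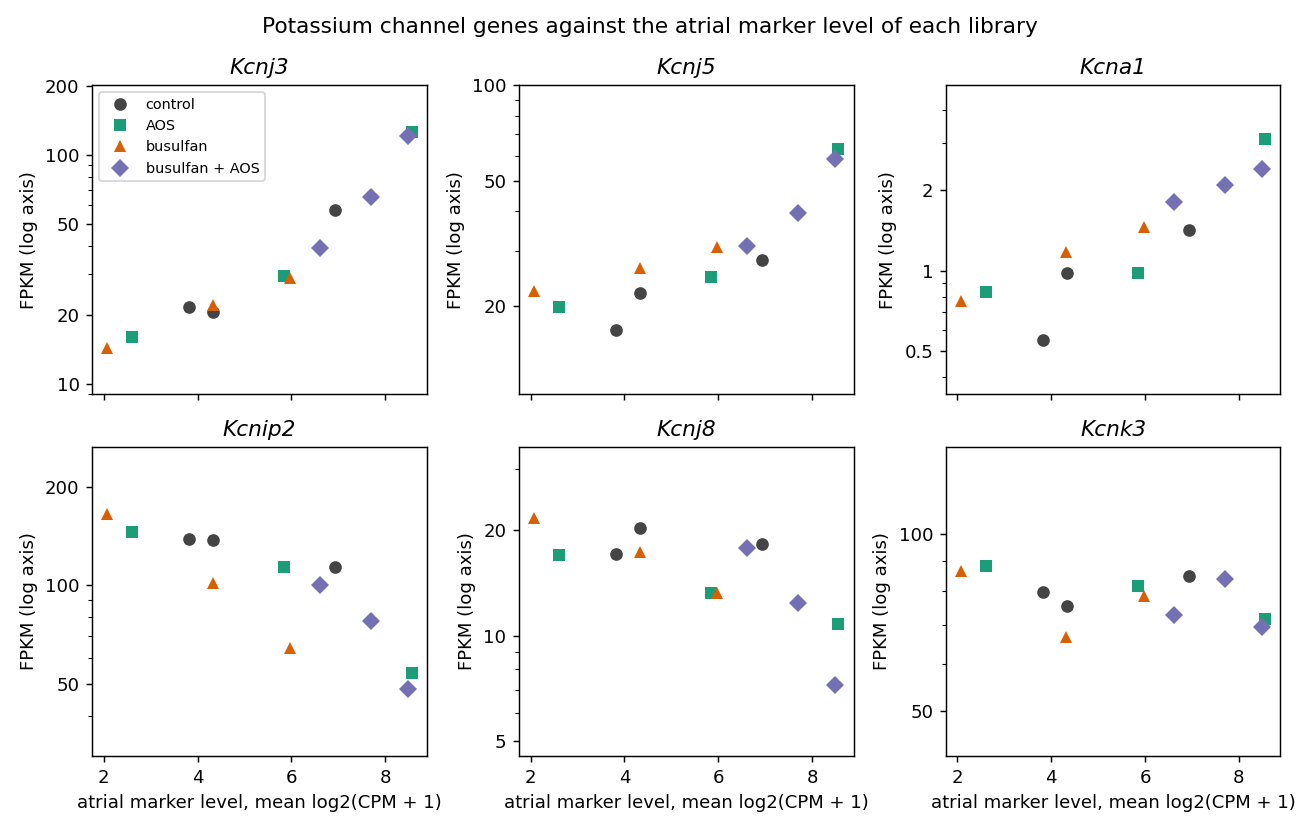
FPKM (log axis) of 6 potassium channel genes against the atrial marker level of each library (mean log2(CPM + 1) of 8 atrial genes), with 1 point per library and 3 per group. Kcnj3, Kcnj5 and Kcna1 are highest at the right, Kcnip2 and Kcnj8 are lowest there, and Kcnk3 stays between 66.9 and 88.1 FPKM.

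Kcnj3 had a slope of 0.43 ± 0.05 (SE, edgeR adjusted p = 0.000678), and its adjusted p was at most 0.0154 with any one library left out. Without the 2 highest libraries its slope was 0.33 (edgeR adjusted p = 0.00827). Kcnj5 rose less steeply, at 0.20 ± 0.04 (edgeR adjusted p = 0.00611), and fell short of the threshold without those 2 libraries (0.12, edgeR adjusted p = 0.0807). Of 12 genes for receptors and G proteins of the same current, 6 rose and 1 fell (11.2% and 8.14% of all genes). The largest slopes were those of Gng2, a G protein gamma subunit, at 0.55, and Rgs6, which ends the G protein signal, at 0.40. The muscarinic receptor Chrm2 had 0.11, the adenosine receptor Adora1 0.12 and Rgs4 -0.10. Slopes of these 12 genes without the 2 highest libraries are not given here.

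Kcnip2 was the steepest member to fall, at -0.29 ± 0.05 (edgeR adjusted p = 0.00287), and without the 2 highest libraries it had -0.23 (edgeR adjusted p = 0.0434). Its Kv4 partners did not pass the test. Kcnd2 had a slope of -0.01 with a 95% interval from -0.14 to 0.11, and Kcnd3 -0.06 from -0.11 to -0.00144 (edgeR adjusted p = 0.133). Kcnj8 (-0.18 ± 0.05, edgeR adjusted p = 0.0317) and Kcnj2 (-0.11 ± 0.03, edgeR adjusted p = 0.0266) also fell. Unlike Kcnip2, neither passed without the 2 highest libraries (edgeR adjusted p = 0.139 for Kcnj8 and 0.222 for Kcnj2). Of the sulphonylurea receptors that pair with Kir6 pores, Abcc8 rose (0.11, edgeR adjusted p = 0.0210) and Abcc9 had -0.25 (edgeR adjusted p = 0.0516).

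Among the other abundant members, Kcna1 (0.26), Kcnt2 (0.20) and Kcnh2 (0.08) rose, with edgeR adjusted p-values of 0.00395, 0.0103 and 0.0209. None of these 3 passed without the 2 highest libraries. For Kcnq1, the slope was 0.00 with a 95% interval from -0.06 to 0.07, and for Kcnn2 it was -0.01 from -0.09 to 0.06. Kcnk3 and Kcna5 had slopes of -0.07 and -0.13 (edgeR adjusted p = 0.0935 and 0.0951).

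The 12 called members under 1 FPKM all rose, among them Kcns3, Kcnk5, Kcna6, Kcnip4, Kcnh7, Kcna4, Kcna2, Kcnq3, Kcnab2, Kcnma1 and Kcnc4. Several are known as channels of neurons, such as Kcnq3, a subunit of the channels of the M current. Kcnq3 lay at 0, 0.01 and 0.02 FPKM in control, 0.05, 0.28 and 0.02 with AOS, 0.02, 0.09 and 0.11 with busulfan, and 0.46, 0.02 and 0.08 with both. These are few fragments, highest in the same 2 libraries. The slopes of Kcns3 and Kcnk5 were 0.91 ± 0.14 and 0.37 ± 0.06 (SE). Without those libraries 10 of the 12 had enough counts to be tested (not Kcns3 and Kcnq3), and 0 of the 10 passed, with Kcnk5 nearest (0.40, edgeR adjusted p = 0.0505).

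Some markers of other tissues also passed the slope test, in which 11.2% of all genes rose and 8.14% fell. Without the 2 libraries highest in atrial markers, 1.73% of all genes passed in either direction. All 7 adipocyte markers rose, as did 5 of 6 for mesothelium, 4 of 8 for the conduction system, 4 of 5 for fibroblasts, 3 of 6 for macrophages, 3 of 5 tested for neurons and Schwann cells, 2 of 5 for smooth muscle, 2 of 6 tested for airway and lung epithelium, 1 of 4 tested for lymphocytes and 1 of 6 for platelets and red cells. Of those for ventricular muscle, 3 of 8 fell, as did 3 of 5 for endothelium and 1 of 5 for pericytes. Summed FPKM of the 8 neuron and Schwann cell markers was 3.32 to 14.42 in the other 10 libraries, 23.98 in AOS replicate 2 and 20.42 in busulfan plus AOS replicate 1. Of its neuronal markers, Th was at 0.83 and 0.95 FPKM in these 2 libraries and 0.2 or less elsewhere, Chat at 0.41 and 0.36 against 0.06 or less, and Dbh at 1.03 to 4.16 FPKM over all 12. Summed adipocyte markers ran from 2.78 to 937.5 FPKM. Their part in the slopes was not tested.

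**Figure D4:**
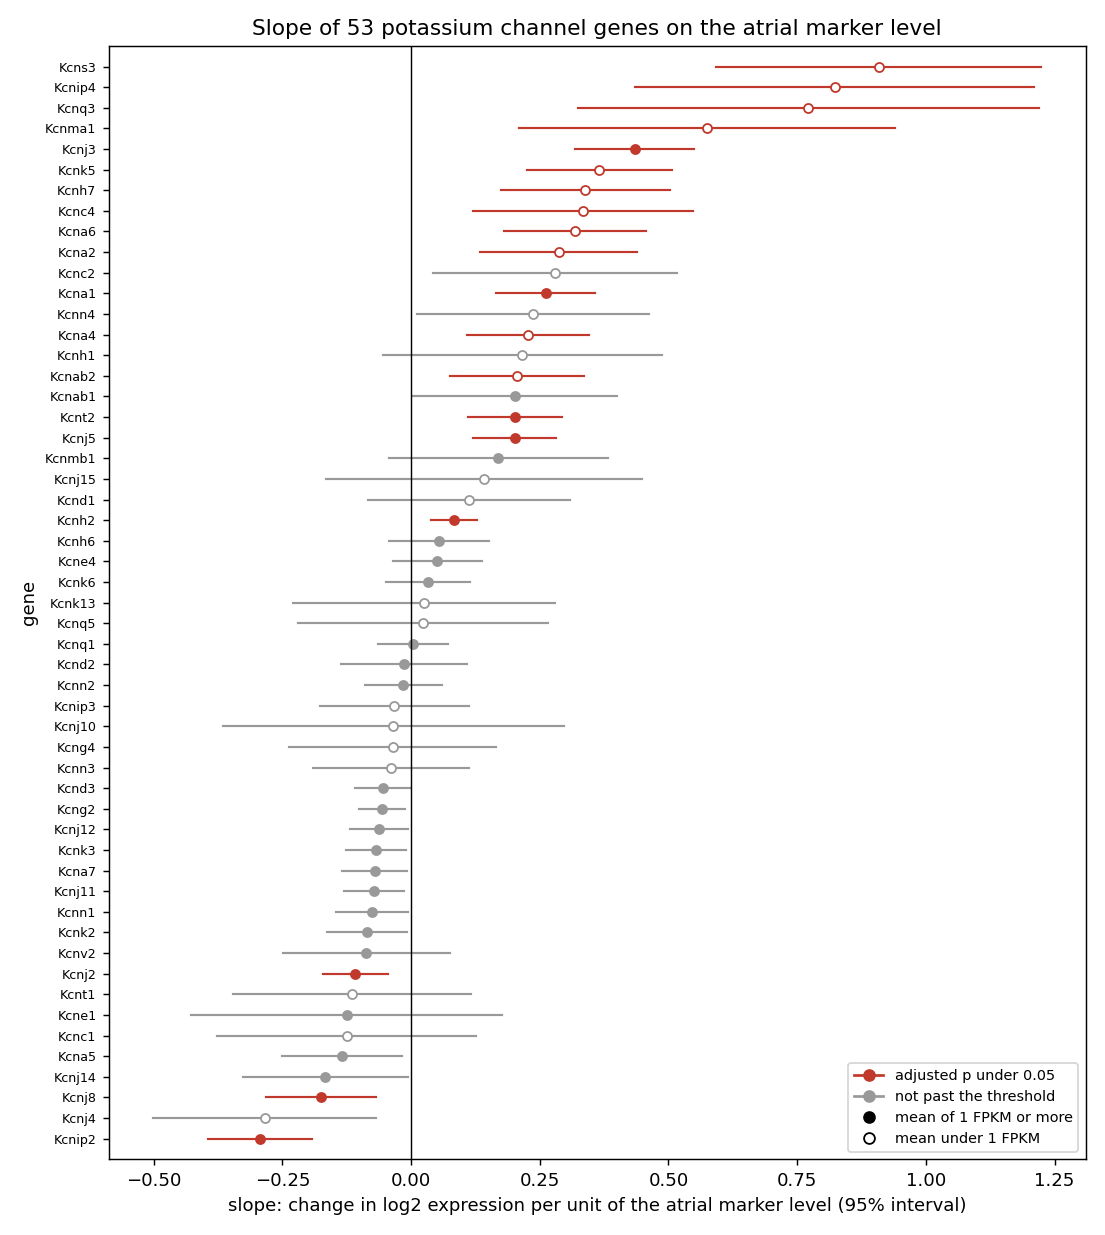
Slope of 53 of the tested potassium channel genes on the atrial marker level (change in log2 expression per unit), with 95% intervals, red where the edgeR adjusted p is under 0.05 and open circles for members under 1 FPKM. Kcnj3 (0.43) is the steepest abundant gene to the right and Kcnip2 (-0.29) to the left, while the steepest slopes of all belong to members under 1 FPKM. Of 12 called members under 1 FPKM, 10 could be tested without the 2 libraries highest in atrial markers, and 0 passed.

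The 2 by 2 design asks what busulfan does to the heart, what AOS does, and whether AOS changes the state after busulfan. No Kcn gene passed edgeR's adjusted p of 0.05 in any of the 9 comparisons. The share of all 14687 genes called was 0% for busulfan against control, 0% for AOS against control, 0% for both agents against busulfan alone, 0.0204% for both against AOS alone and 0.306% for both against control. It was 0.157% for the main effect of busulfan, 0% for the main effect of AOS, 0% for the interaction and 0.0749% for an F test over the groups. At an unadjusted p under 0.05, the Kcn genes numbered 10 of 57 for busulfan against control, or 17.5% (10.6% of all genes). For AOS against control they numbered 5, or 8.77% (6.92% of all genes). Both agents gave 8 against busulfan alone, or 14% (10.2%), 4 against AOS, or 7.02% (9.42%), and 21 against control, or 36.8% (32.8%). The main effect of busulfan gave 12 Kcn genes, or 21.1% (17.2% of all genes), and that of AOS 17, or 29.8% (17.3%). For the interaction they numbered 0 (2.94%) and for the F test 11, or 19.3% (15%). DESeq2 called 11 for busulfan plus AOS against control (16.9% of genes), 2 for the main effect of busulfan (4.01%), 1 for busulfan plus AOS against AOS (1.06%) and 3 for the F test (3.9%). It called 0 for busulfan against control (0.354%), AOS against control (0.0545%), both agents against busulfan alone (0.361%), the main effect of AOS (0.688%) and the interaction (0.0341%). Limma called 0 in all 9. For busulfan plus AOS against control, edgeR called 11 Kcn genes and 17.2% of all genes once AOS replicate 2 was left out. That library is in neither group and enters the comparison through the shared estimate of the spread, the gene filter and the scaling. For the main effect of busulfan, edgeR called 1 without AOS replicate 2 (2.33% of all genes). With the atrial marker level as a covariate, added after seeing the data, edgeR called 3 Kcn genes for busulfan against control (1.06% of all genes), 2 for the main effect of busulfan (2.72%) and 0 in each other comparison. Comparisons with control share the same 3 control libraries.

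Counted by libraries that do not overlap between groups, busulfan stood above control in 11 of 57 Kcn genes (11.8% of all genes) and below it in 1 (5.12%). AOS stood above control in 8 (8.03%) and below in 2 (2.54%). Busulfan plus AOS stood above control in 17 (30.5%) and below in 6 (10.7%), above busulfan in 9 (15.3%) and below in 5 (6.54%), and above AOS in 2 (6.71%) and below in 2 (4.41%). With 6 libraries against 6, 0 Kcn genes separated the libraries with busulfan from those without (0.62% of all genes higher, 0.293% lower), or those with AOS from those without (0.218% and 0.0545%). An exact permutation test of 3 libraries against 3 cannot give a two-sided p below 0.1.

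Kcnn1 (chromosome 8, 70843158 to 70865691), which encodes a small-conductance calcium-activated channel, had the smallest p of the Kcn genes in 6 of the 9 comparisons. Its values were 7.11, 5.18 and 6.31 FPKM in control, 4.02, 4.27 and 4.33 with AOS, 4.56, 4.21 and 3.80 with busulfan, and 3.67, 4.48 and 3.97 with both. Every treated library lay below every control library, and the 3 treated groups overlapped. Against control the log2 fold change was -0.68 ± 0.18 with busulfan (SE, edgeR adjusted p = 0.416), -0.68 ± 0.18 with AOS (edgeR adjusted p = 0.642) and -0.81 ± 0.18 with both (edgeR adjusted p = 0.0736). The interaction was 0.54 ± 0.25 (edgeR adjusted p = 1). DESeq2 called Kcnn1 for busulfan plus AOS against control (adjusted p = 0.00405). A transcript of the opposite strand overlaps an exon of Kcnn1.

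Kcnj2 (chromosome 11, 111066164 to 111076825), the main Kir2 pore of the resting current, had the smallest p of the Kcn genes for the main effect of busulfan. It lay at 12.4, 9.66 and 10.5 FPKM in control, 11.5, 10.3 and 11.8 with AOS, 11.0, 7.35 and 8.01 with busulfan, and 6.05, 6.89 and 7.68 with both. All 3 busulfan plus AOS libraries were below all control and all AOS libraries, while 1 of 3 busulfan libraries lay within the control range. The main effect of busulfan was -0.58 ± 0.14 in log2 (edgeR adjusted p = 0.114), and busulfan plus AOS against control was -0.85 ± 0.20 (edgeR adjusted p = 0.0766). Busulfan plus AOS against AOS was -0.78 ± 0.20 (edgeR adjusted p = 0.292). DESeq2 called all 3 (adjusted p = 0.0111, 0.00486 and 0.0447). The atrial marker level, on which Kcnj2 fell, was 3.82, 6.94 and 4.33 in control and 8.5, 6.61 and 7.71 with both treatments. With that level as a covariate, the main effect was -0.53 (edgeR adjusted p = 0.0228), while busulfan plus AOS against control was -0.57 (edgeR adjusted p = 0.177) and against AOS -0.57 (edgeR adjusted p = 0.331). The other Kir2 pore, Kcnj12, averaged 7.80 ± 0.849 FPKM in control, 7.19 ± 0.696 with AOS, 7.3 ± 0.578 with busulfan and 7.43 ± 0.385 with both (SD, n = 3). The ratio of Kcnj2 to Kcnj12 was accordingly 1.39 ± 0.0295 in control, 1.56 ± 0.0476 with AOS, 1.21 ± 0.281 with busulfan and 0.93 ± 0.156 with both (SD, n = 3).

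**Figure D5:**
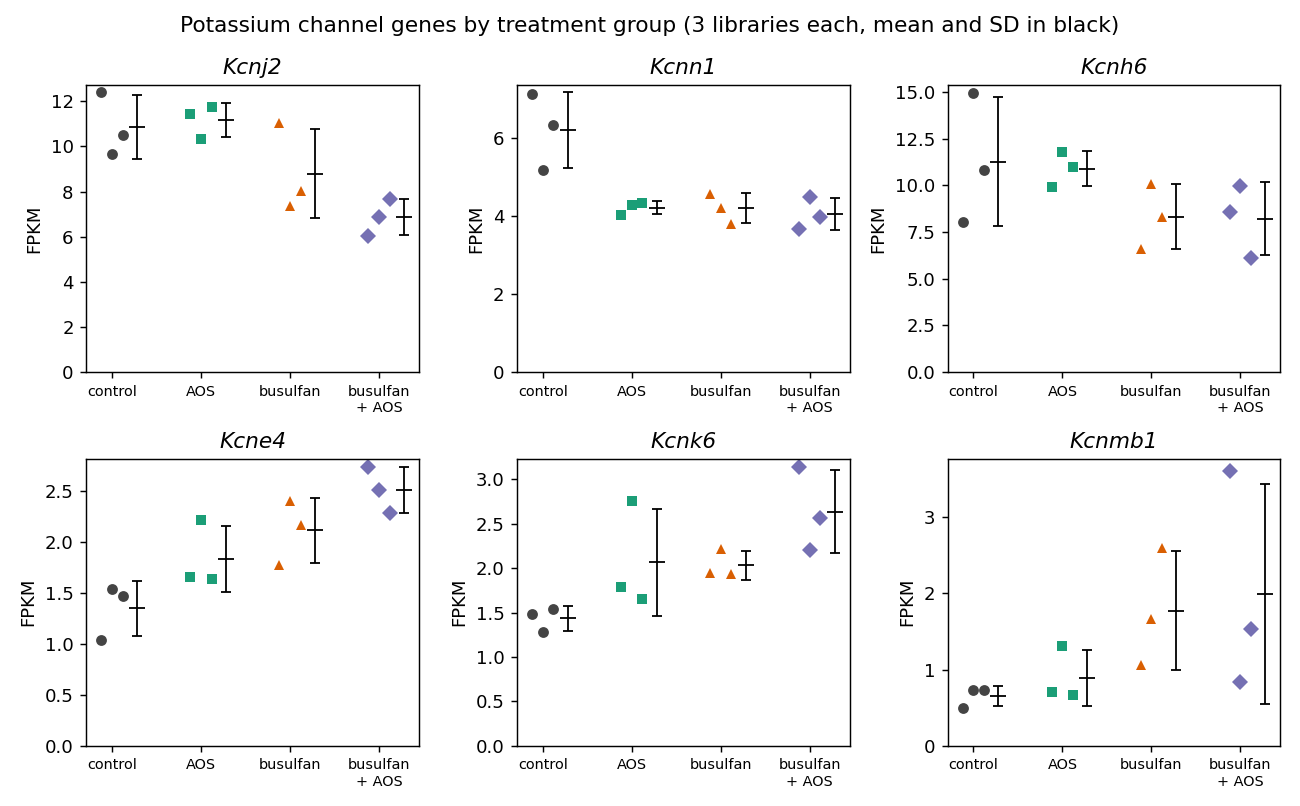
FPKM of 6 potassium channel genes by treatment group, with 1 point per library and the mean and SD of 3 libraries in black. All 9 treated libraries lie below the 3 control libraries for Kcnn1, and the 3 busulfan plus AOS libraries lie below all control and AOS libraries for Kcnj2. No gene shown passed edgeR's adjusted p of 0.05.

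The auxiliary subunits Kcnmb1 and Kcne4 were among the 5 members with the smallest p for the main effect of busulfan, and Kcnab1 came next. Kcnmb1, the BK beta subunit known from smooth muscle, lay at 0.50, 0.73 and 0.73 FPKM in control, 0.70, 1.31 and 0.66 with AOS, 1.06, 1.66 and 2.60 with busulfan, and 3.61, 0.84 and 1.53 with both. Its main effect of busulfan was 1.23 ± 0.35 in log2 (edgeR adjusted p = 0.149, DESeq2 adjusted p = 0.0327). Kcnab1 had group means of 0.817 ± 0.267 FPKM in control, 1.36 ± 0.722 with AOS, 2.06 ± 0.717 with busulfan and 2.64 ± 1.86 with both (SD, n = 3), and 1.101 ± 0.347 for the same effect (SE, edgeR adjusted p = 0.182). Beside Kcnmb1 and Kcnab1, the summed FPKM of 5 smooth muscle markers was 175.0 to 232.2 in control, 192.6 to 353.0 with AOS, 286.7 to 499.6 with busulfan and 311.6 to 853.6 with both. None of the 5 was at 0 in any library, and their part in the difference was not tested. Kcne4 lay at 1.04, 1.54 and 1.47 FPKM in control, 1.66, 2.21 and 1.64 with AOS, 1.77, 2.4 and 2.17 with busulfan, and 2.73, 2.51 and 2.28 with both, with 0.45 ± 0.14 for the main effect of busulfan (edgeR adjusted p = 0.178). Every treated library exceeded the control libraries for Kcne4, those without busulfan included.

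Kcnh6 had a main effect of busulfan of -0.49 ± 0.15 (edgeR adjusted p = 0.179), from group means of 11.3 ± 3.47 FPKM in control, 10.9 ± 0.933 with AOS, 8.33 ± 1.74 with busulfan and 8.21 ± 1.95 with both (SD, n = 3). Its relative Kcnh2 had means of 23.5 ± 5.88, 25.8 ± 6.94, 24.4 ± 3.73 and 27.1 ± 0.61 FPKM in the same order. The background channel Kcnk6 lay at 1.48, 1.28 and 1.54 FPKM in control and 3.14, 2.21 and 2.56 with both, a log2 fold change of 0.68 ± 0.18 (edgeR adjusted p = 0.0818). Every treated library exceeded the control libraries for Kcnk6. The share of all genes that separate in this way, as Kcnk6, Kcne4 and Kcnn1 do, is not given here. For busulfan plus AOS against control, DESeq2 called Kcnk6, Kcne4, Kcnab1 and Kcnc4 higher and Kcnh6 lower, among others (adjusted p = 0.0242, 0.028, 0.0355, 0.0144 and 0.0397). DESeq2 called 16.9% of all genes in that comparison. Low members had larger folds on few fragments: Kcnc4 averaged 0.0667 FPKM in control and 0.403 with both, and Kcnj10 0.03 and 0.31 FPKM (fitted log2 differences of 2.95 ± 0.76 and 3.096 ± 0.783, edgeR adjusted p = 0.0787 for each).

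For AOS after busulfan, Kcnj3 was at 14.3, 28.9 and 22.0 FPKM with busulfan and at 120.0, 38.9 and 65.5 with both, a log2 fold change of 1.66 ± 0.68 (edgeR adjusted p = 0.469). The atrial marker level in these libraries was 2.08, 5.98 and 4.32 against 8.5, 6.61 and 7.71, also without overlap. With that level as a covariate the log2 fold change of Kcnj3 was 0.07 ± 0.31 (edgeR adjusted p = 1). Because the marker levels of these groups do not overlap, treatment and atrial marker level cannot be told apart here. Kcnj11 had a log2 fold change of -0.41 ± 0.16 (edgeR adjusted p = 0.469). Kcnh7, at a mean of 0.25 FPKM over all libraries, had the smallest unadjusted p there, with 1.56 ± 0.58, and Kcna7 had -0.39 ± 0.17. For the main effect of AOS, Kcnab2 had 0.91 ± 0.28, Kcnn1 -0.41 ± 0.13, Kcnj11 -0.32 ± 0.11, Kcnc4 1.45 ± 0.50 and Kcnj10 1.51 ± 0.53 (edgeR adjusted p = 0.286 for each).

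The remaining members with the smallest p had means on either side of 1 FPKM. For busulfan against control they were Kcnc4 with a log2 fold change of 2.51 ± 0.76, Kcnmb1 with 1.38 ± 0.50, Kcnab1 with 1.29 ± 0.50 and the inward rectifier Kcnj15 with 1.56 ± 0.61 (SE). For AOS against control they were Kcnc4 with 2.46 ± 0.76, Kcnab2 with 1.15 ± 0.40, the calcium-activated channel Kcnn4 with 1.62 ± 0.62 and Kcnn2 with 0.39 ± 0.16. Busulfan plus AOS against AOS gave 1.65 ± 0.68 for Kcnj10, -1.37 ± 0.58 for Kcnc1, 1.09 ± 0.49 for Kcnmb1 and -0.47 ± 0.22 for Kcnh6. The interaction was -2.01 ± 0.99 for Kcnc4, 1.57 ± 0.82 for Kcnh7 and -0.91 ± 0.49 for Kcnv2, and the main effect of busulfan on Kcnn1 was -0.41 ± 0.13. None of these had an edgeR adjusted p below 0.175.

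By family, 3 of 10 tested inward rectifiers had a fitted main effect of busulfan above 0 (median -0.10), against 4 of 5 Kv auxiliary subunits (median 0.57), 4 of 5 tandem pore channels (0.29), 8 of 11 KCNQ, ether-a-go-go and KCNE members (0.14), 2 of 4 silent Kv subunits (0.11), 5 of 8 calcium- or sodium-activated members (0.05) and 10 of 14 Kv alpha subunits (0.04). Over all genes tested the share was 50.3% and the median 0.00. Among 13 channel partners (9 tested), 12 receptors and G proteins and 16 transcription factors and anchors of cardiac potassium channels, the smallest edgeR adjusted p in any treatment comparison was 0.0736, for the G protein subunit Gnai3 with both agents against control (0.56 ± 0.13 in log2). On the atrial slope, the T-box factor Tbx5 rose (0.47, edgeR adjusted p = 0.000241), from 5.29, 22.8 and 8.51 FPKM in control to 52.4 in AOS replicate 2. The atrial factor Nr2f2 also rose (0.26), as did the ubiquitin ligase Nedd4l (0.07). In all, 3 of the 16 rose and 3 fell (11.2% and 8.14% of all genes), among the latter the anchors Actn2 (-0.13) and Fhl2 (-0.27).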

How the data were processed

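The authors deposited estimated counts for each gene, of which 19.7% to 22.8% per library were fractional (tolerance 0.005). An expression value stands beside them per the file headers and was taken as the authors' FPKM, since it scales as counts per gene length and library total. The submitters' processing notes name mm10 as the build. For the aligner, counting tool and strand setting, nothing is given in the sources used here. Group means of the authors (8 columns) were not used.

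Groups were read from the titles, with the code HBA0 taken as busulfan alone. The tissue is labelled Cells, but protocol and title speak of heart.

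Counts were rounded to whole numbers (at most 18.1 counts per library total), filtered with filterByExpr (14687 genes tested, 4559 left out), scaled by TMM and fitted over all 12 libraries with group means in edgeR 4.0.16 (R 4.3.3), with Benjamini-Hochberg adjustment over all genes at 0.05. All 30 Kcn genes of 1 FPKM or more and 27 of the 60 below were tested. The standard error is the absolute log2 fold change over the square root of F. The common biological coefficient of variation was 29.1%. The atrial slope was fitted with group means and does not count the 8 atrial genes. The test was also run on simulated data. Alternatives were DESeq2 1.42.0, limma 3.58.1 on log2(FPKM + 0.1) or log2(FPKM + 1), other scaling and filters, a replicate block and each library left out. The labels tie replicate numbers to no shared animal or batch. Same-numbered deviations from the group means correlated above 0.1 in all 3 pairs only for control with busulfan (r = 0.254, 0.422 and 0.129). Whether those numbers pair cannot be told from these values. In the other group pairs at least 1 of 3 fell short (7 of 18 pairs above 0.1 in all, r from -0.478 to 0.603). All 90 Kcn genes matched RefSeq (GRCm38.p6) by gene identifier, and overlaps come from GENCODE.

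Members, marker and partner lists were chosen with earlier results of these data known. Any member of 1 FPKM or more may be named, lower members where they reach 1 FPKM, pass a test or complete a family, and the 5 smallest unadjusted p per comparison get a fold change. Some genes are counted in the totals but not reported here by name. The fold change of Kcnab1 was added after its values were seen.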

Additional observations from a re-analysis of the deposited data

How the results depend on the processing

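The abundant members numbered 30 at a mean of 1 FPKM, 40 at 0.5 FPKM, 23 at 2 FPKM, 29 by the median, and 30 to 31 with any one library left out. On the atrial slope, 20 Kcn genes were called, beside 19.3% of all genes. The count was 21 with DESeq2, 20 with RLE size factors, 21 without a filter, and 17 and 14 with limma at pseudocounts of 0.1 and 1. It was 15 with Myl7 alone and 24 without group terms. Shares of all genes under these alternatives, and under the replicate block below, are not given here. The counts therefore cannot be set against such shares. With one library left out the count ran from 2 to 22, and without the 2 libraries highest in atrial markers, an alternative added after seeing the data, it was 2. For the treatments edgeR called 0 Kcn genes in each comparison. DESeq2 called 11 for busulfan plus AOS against control, 2 for the busulfan main effect, 3 for the F test and 1 for busulfan plus AOS against AOS. With one library left out the counts ran from 0 to 11 for busulfan plus AOS against control and from 0 to 1 for the busulfan main effect, in both cases highest without AOS replicate 2, and stayed at 0 elsewhere. With the atrial marker level as a covariate, also added later, 3 were called for busulfan alone against control (Kcns3 and Kcnc4 higher, Kcnn1 lower) and 2 for the busulfan main effect (Kcnj2 lower, Kcns3 higher). The cause was not tested. With the replicate block over all 12 libraries, 0 Kcn genes were called in each treatment comparison and 15 on the slope. In the control and busulfan libraries alone, with the block, an alternative added later, edgeR called 0 Kcn genes and 17 of all genes. Members listed at or near 0 rest on few fragments, and their folds are not bounds.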
